A study of Mus musculus with 8 samples.

Results

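The genes described here code for the splicing machinery and the RNA-binding proteins that act with it. They comprise every array spot whose single gene symbol starts with SNRP, SF3A, SF3B, SRSF, PRPF, HNRNP, LSM, U2AF, DDX, DHX or RBM, which gave 142 of 9984 spots and 64 of 2922 named genes. No U2AF gene was among them. By prefix, 24 genes were core spliceosome proteins (SNRP, SF3A, SF3B, PRPF, LSM), 5 were SR proteins (SRSF), 12 were hnRNPs, 12 were DDX or DHX helicases and 11 were RNA-binding motif proteins (RBM). The symbol rule itself used no measured value, but it was set with earlier results of these data known. The names do not guarantee one function: LSM10 belongs to the particle that processes histone messages, and several of the helicases act outside splicing.

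Splicing removes introns from pre-mRNA. Small nuclear RNAs, each carried by a ring of Sm proteins (or LSm proteins on U6), assemble with their partners on the intron, and RNA helicases drive the rearrangements that lead to catalysis. SR proteins bind exons and mostly favour their inclusion, while hnRNPs coat the nascent transcript and often oppose it. In muscle precursors these factors take part in the isoform switches that accompany differentiation, and DDX5 and DDX17 are also known as coactivators of MyoD.

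The cells were C2C12, a mouse myoblast line, and nothing in the labels says that more than one culture was grown per condition. They were kept in control medium (MBN) for 0, 14 or 24 h or for 14 or 24 h in medium (MBC) that had been conditioned by human pancreatic cancer cells of the CAPAN-1 line. The growth medium of the line was DMEM with 2 mM glutamine and 10% fetal bovine serum. Total RNA was labelled directly, 15 µg per dye, and hybridised to a spotted human muscle array, so gene symbols are human, and which mouse transcript a spot captured was not tested. Equal masses of RNA were compared, so a lower value may mean fewer transcripts per cell or a smaller share of all RNA, which cannot be told apart.

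There were 4 comparisons of 2 arrays each. Conditioned medium was set against control medium of the same hour (MBC14 over MBN14, MBC24 over MBN24), called matched here, and against the 0 h control (MBC14 over MBN0, MBC24 over MBN0). Array A carried the conditioned RNA in Cy5 and array B in Cy3. The design text says the same RNAs were crossed over both dyes, so the arrays of a comparison count as 1 replicate and an SD over them (n = 2 arrays throughout) is technical. The deposited values are signed scores of unstated scale, so differences are in score units and no fold change is given.

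Which way the scores run is not settled. Arrays A and B correlated below 0 over all 2922 genes in every comparison (r from -0.32 to -0.13, across genes, which are not replicates). Arrays of the same letter correlated at 0.36 (A) and 0.29 (B) between the matched comparisons, which share no RNA. Between comparisons that share the conditioned RNA they correlated at 0.07 (A) and 0.06 (B) at 14 h, and 0.06 and -0.01 at 24 h. Between those that share the 0 h RNA the values were 0.23 (A) and 0.39 (B). Whether dye effects on single genes gave any of these correlations was not tested. From the correlations of A with B, and so from the same scores tested below, the values were taken to be Cy5 over Cy3. The sign of array B was turned for this reading. All values below are in this reading unless another is named. A positive value then means more RNA in conditioned medium, if the scores are Cy5 over Cy3. The labels call the channel of the conditioned RNA Test. Scores of Test over reference would need no array turned, which is the other reading. In the other reading (conditioned over control) array B is left as deposited. The sign of array B as printed here is then reversed, so the mean becomes that of A and minus B. No test exists within a comparison. A gene passed the size rule there when its mean reached 1 score unit, up or down, with both arrays at 0.5 or beyond on that side.

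The ratios give no expression level, so the myoblast identity of the cells could not be checked on levels. Of 7 myoblast markers 3 were measured (MYOD1, MYF6 and DES), with matched-hour means of -0.43 to 1.13. The 2 of 8 measured epithelial markers lay at 0.09 and 0.13, and the 3 of 4 fibroblast markers between -0.05 and 0.64. None of these 8 genes passed the matched-hour test described next.

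The hnRNPs HNRNPU, HNRNPA0 and HNRNPAB and the Sm protein SNRPE were lower in conditioned medium over both hours. In this order they fell by 2.14, 1.92, 1.71 and 1.91 score units. They were 4 of the 64 members (6.25%), beside 5.2% of all 2922 genes called in either direction and 2.12% called lower, so the share called in either direction was near that of all genes, and all 4 calls were lower. No member rose, beside 3.08% of all genes. The test was limma with Benjamini-Hochberg adjustment over all genes, two-sided. It took 1 array mean per matched hour, 2 values per gene, and estimated the shift shared by the hours. The spread behind its p-values is that between these 2 values, drawn by limma towards a spread shared by all genes. It holds no spread between replicate cultures of one condition. With the scores read as conditioned over control, 0 of 2922 genes passed in limma, and 91 genes had an unadjusted p under 0.05. The members among them were DDX5 (1.46 ± 0.44, SE) and LSM7 (1.09 ± 0.38, SE), both below 0 in the first reading. Of the 64 members, 24 had opposite signs in the readings.

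HNRNPU, a large nuclear scaffold protein that binds both RNA and DNA, scored -3.60 on array A and -1.68 on array B at 14 h. At 24 h it scored -1.69 and -1.58. All 4 matched arrays were below -1.5, and array A at 14 h stood lowest. The common shift was -2.14 ± 0.42 (SE, adjusted p = 0.0232 in limma).

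HNRNPA0, an A/B-type hnRNP that binds AU-rich messages, scored -2.55 and -1.29 on arrays A and B at 14 h, and -2.71 and -1.14 at 24 h. Both A arrays were lower than both B arrays, and the means of the hours were equal at -1.92. The common shift was -1.92 ± 0.38 (SE, adjusted p = 0.024 in limma).

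HNRNPAB, another A/B-type hnRNP, was the most even of the 4. It scored -1.70 and -1.57 on arrays A and B at 14 h and -1.87 and -1.68 at 24 h. Its common shift was -1.71 ± 0.38 (SE, adjusted p = 0.0369 in limma).

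SNRPE, the Sm ring protein E, was uneven. It scored -4.65 on array A and -0.65 on array B at 14 h, and -0.07 and -2.27 at 24 h, so 1 array per hour carried most of the value. Its common shift was -1.91 ± 0.45 (SE, adjusted p = 0.0439 in limma). It passed the size rule at 14 h only, while the 3 hnRNPs passed it at both hours. They were the only members of 64 to pass as lower at both hours, as did 85 of 2922 genes (2.91%).

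Each of the 4 called genes was printed as a pair of adjacent spots, and the spots of a pair gave the same sign for all 3 hnRNPs on all 4 matched arrays. The matched-hour means of the spots were -2.13 and -2.14 for HNRNPU, -2.06 and -1.78 for HNRNPA0, -1.43 and -1.99 for HNRNPAB, and -2.47 and -1.35 for SNRPE. For SNRPE the spots differed in sign on array A at 24 h (-0.69 and 0.54).

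The calls depended on which arrays were used and on how they were centred. Without the A arrays 0 members were called, beside 0% of all genes, and the 4 means were -1.63 to -1.22. Without the B arrays 3 were called, beside 4.38% of all genes, with HNRNPAB lost (adjusted p = 0.128 in limma). Centring on neighbouring spots took off the median of a window that held the spot itself and the other spot of its pair. With 51 spots in the window HNRNPAB and SNRPE were lost (adjusted p = 0.0791 and 0.0678 in limma). It called 5 members, beside 5.37% of all genes. With 11 spots in the window 0 members were called by limma, beside 0.0684% of all genes. Of the members 9 had an unadjusted p under 0.05 in limma, and HNRNPAB shrank to -0.37. A gene's own spots make up more of this smaller window, and how far this shrank the values was not tested. In the conditioned-over-control reading the means were -0.51, -0.71, -0.08 and -0.45 in the order named above, with adjusted p = 0.995 in limma for each.

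**Figure D1:**
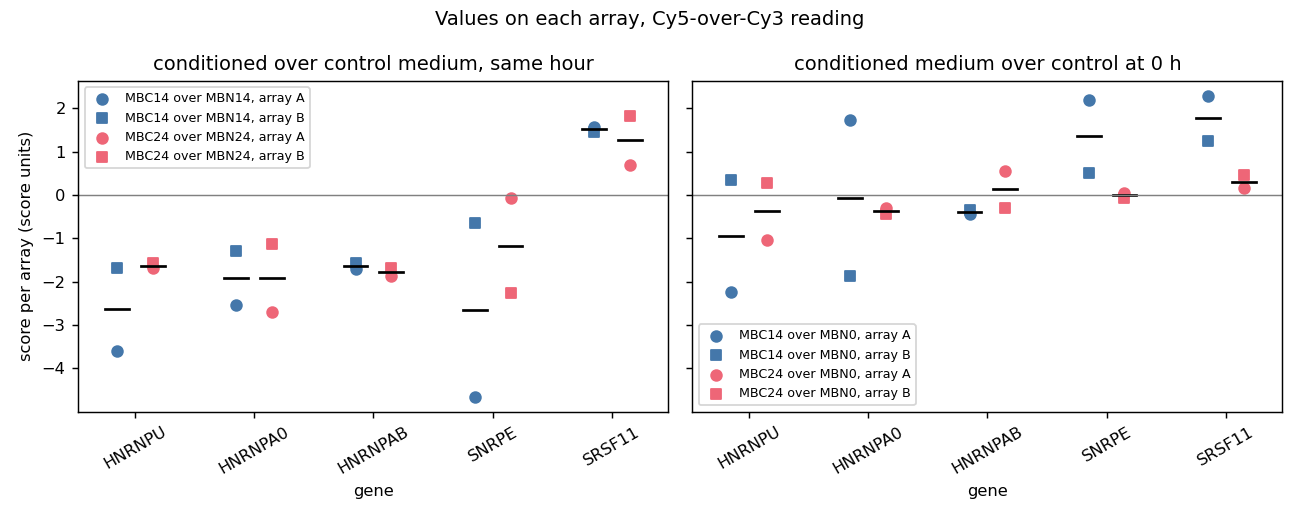
Score per array for the 4 members called in the matched-hour test and for SRSF11. Circles are array A, squares array B, blue the 14 h and red the 24 h comparison, and black bars the mean of the arrays. The 3 hnRNPs lie below -1 on all matched-hour arrays (left) and nearer 0, or split between the arrays, against 0 h (right).

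Upstream sequences of the mouse counterparts of these 4 genes are shown because their transcripts moved the same way in one test. They are the 150 bases before the annotated start, from RefSeq (GRCm38.p6), read 5′ to 3′ on the gene's strand, which is the minus strand for all 4. Capitals mark matches, on either strand, to the core letters of 4 common promoter elements. CCAAT was searched for the box of that name. For the element that binds the general initiation machinery the letters were TATAAA. Those for the GC box, bound by Sp-type factors, were GGGCGG. For an ETS-type site they were CCGGAAG. The windows are chr1:178337816-178337965 for Hnrnpu, chr13:58128557-58128706 for Hnrnpa0, chr11:51606882-51607031 for Hnrnpab and chr1:133610281-133610430 for Snrpe.
Hnrnpu: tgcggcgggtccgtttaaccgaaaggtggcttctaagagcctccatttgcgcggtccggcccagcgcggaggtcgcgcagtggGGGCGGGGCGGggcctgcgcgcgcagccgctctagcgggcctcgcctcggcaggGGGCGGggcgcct
Hnrnpa0: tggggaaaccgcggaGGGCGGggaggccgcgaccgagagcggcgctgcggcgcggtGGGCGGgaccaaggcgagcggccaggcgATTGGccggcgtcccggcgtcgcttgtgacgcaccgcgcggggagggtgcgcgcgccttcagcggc
Hnrnpab: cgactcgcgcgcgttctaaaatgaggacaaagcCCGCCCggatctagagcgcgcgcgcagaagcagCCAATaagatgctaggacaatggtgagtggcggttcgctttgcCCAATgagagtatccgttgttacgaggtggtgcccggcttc
Snrpe: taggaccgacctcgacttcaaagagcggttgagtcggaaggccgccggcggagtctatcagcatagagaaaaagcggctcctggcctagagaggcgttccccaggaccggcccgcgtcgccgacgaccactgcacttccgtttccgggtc

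The windows shared no one motif. Hnrnpu held 3 GC-box matches, 2 of which overlap, Hnrnpa0 held 2 GC-box matches and 1 CCAAT match, Hnrnpab held 1 and 2, and Snrpe held no match in these 150 bases. Over the 250 bases before the start, 58 of the 64 members had a window under the same symbol, 75 windows in all (not LSM4, RBM8A, RBM22, SF3B5, SNRPB and SNRPD1). CCAAT was present in 49.3% of these and in 33.8% of all 32851 windows, GGGCGG in 49.3% and 32.7%, TATAAA in 6.67% and 12.4%, and CCGGAAG in 29.3% and 6.91%. Such matches describe letters, not sites in use, and were not tested.

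Taken by class, the hnRNPs lay lowest at matched hours. Their median was -0.58 at 14 h and -0.27 at 24 h, beside -0.04 and -0.11 for all genes. At each hour 8 of 12 were below 0, beside 52.3% of all genes at 14 h and 55% at 24 h. In the shift shared by the hours 3 of the 12 were called, all lower, and the class median was -0.32. In it 9 of 12 were below 0, beside 53.4% of all genes. The class medians are descriptions without a test, and the 2 arrays differed at 14 h (-1.02 on array A, -0.05 on array B). After centring on 51 neighbouring spots the medians were -0.39 and -0.08. In the conditioned-over-control reading the hnRNPs were lowest at 14 h (-0.42) and not at 24 h (-0.07, with -0.40 for the RBM class). For the shift shared by the hours their median there was -0.41, with 10 of 12 below 0, beside 48.3% of all genes.

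**Figure D2:**
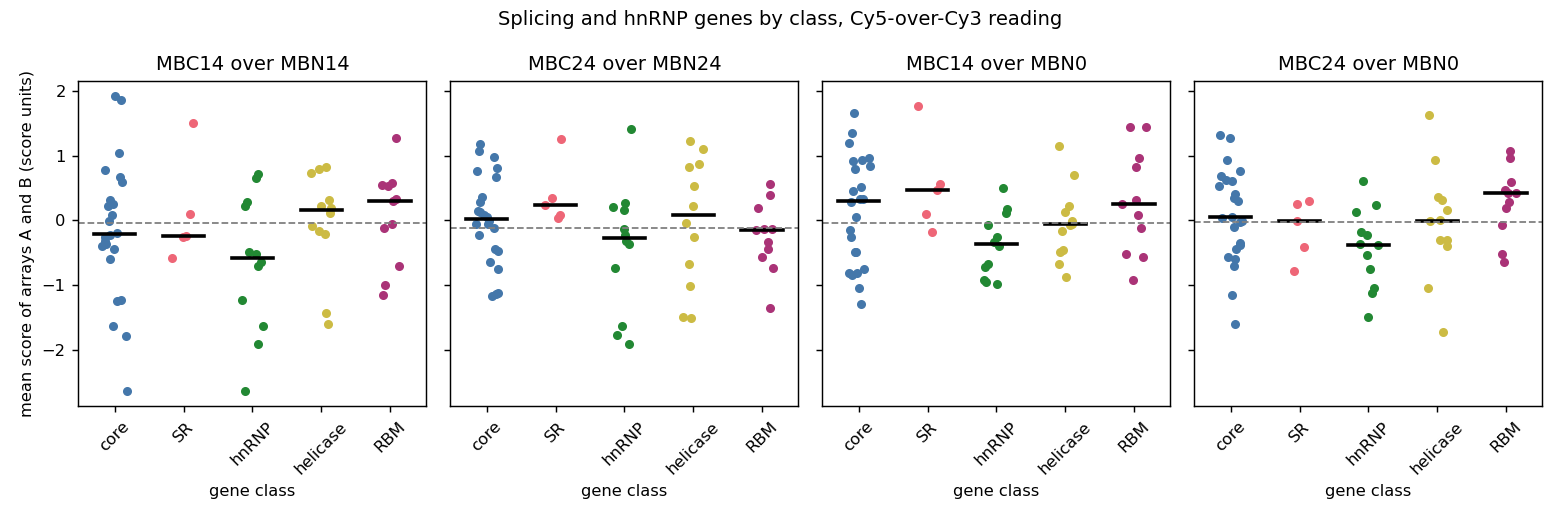
Mean score of arrays A and B for each of the 64 genes, by class, in the 4 comparisons. Coloured points are genes, black bars class medians and the dashed line the median of all 2922 genes. The hnRNP median lies below that line in every panel, from -0.58 in MBC14 over MBN14 to -0.27 in MBC24 over MBN24.

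The other hnRNPs did not pass. HNRNPA2B1, which like HNRNPA1 binds exonic silencers, was below 0 on all 4 matched arrays, but with -2.39 on array A at 14 h and -0.40 to -0.04 on the other 3. Its common shift was -0.73 ± 0.42 (SE). HNRNPA3 was also below 0 on all 4, between -0.73 and -0.29. Over all classes, 9 members were below 0 on all 4 matched arrays, beside 16.4% of all genes. Above 0 on all 4 were 5 members, beside 12.8% of all genes. The highest hnRNP was the poly(C)-binding HNRNPK, with a common shift of 1.07 ± 0.40 (SE, adjusted p = 0.156 in limma). On its arrays A and B it scored 1.11 and 0.33 at 14 h and 0.25 and 2.60 at 24 h. These gene values were above 0 throughout, but its shift was -0.39 in the conditioned-over-control reading. The spots of its pair differed, with matched-hour means of -0.22 and 2.36, and read -0.88 and 6.07 on array B at 24 h. HNRNPC, HNRNPD, HNRNPDL, HNRNPF, HNRNPUL1 and HNRNPA1 had common shifts between -0.43 and 0.20. The A and B types are close relatives, and whether a spot tells their transcripts apart was not tested.

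Among the core spliceosome genes 12 of 24 were above 0 and 12 below in the common shift, with a median of -0.10, and only SNRPE was called. The Sm proteins, which form one ring and are present in it once each, did not share its score. SNRPB was next lowest at -1.47 ± 0.40 (SE, adjusted p = 0.0673 in limma), with -3.11 and -0.47 on arrays A and B at 14 h and -0.70 and -1.57 at 24 h. All 4 were below 0, and at 24 h it passed the size rule. SNRPD3 (-0.57), SNRPD2 (-0.34), SNRPG (-0.33), SNRPF (0.23) and SNRPD1 (0.37) lay nearer 0.

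Of the proteins particular to single particles, SNRPA1 (U2) passed the size rule as lower at 14 h, with -1.33 and -1.13, and its arrays split at 24 h (1.03 and -0.46). SNRPC, which helps U1 recognise the 5′ splice site, passed it as higher at 14 h (0.69 and 1.39). SF3B5, a small subunit of the SF3b complex on U2, scored -1.19 and -1.31 at 14 h and -0.33 and -0.12 at 24 h. SNRPB2 (U2) had a common shift of 0.07, or 0.69 after centring on 51 neighbouring spots. SNRPA1, SNRPC and SF3B5 thus passed the size rule at 14 h and not at 24 h.

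The PRPF proteins went both ways. PRPF8, the U5 protein at the heart of the catalytic centre, had the highest mean of all members at 14 h, 1.93 ± 0.59 (SD), with 2.35 and 1.52 on arrays A and B, and lay at 0.37 and -0.19 at 24 h. PRPF19, a ubiquitin ligase needed to activate the spliceosome, scored 0.86 and -1.59 at 14 h and passed the size rule as lower at 24 h (-1.21 and -1.03). Its common shift turned from -0.74 to 0.56 in the other reading. PRPF6, which bridges the U5 and U4/U6 particles, had a common shift of 0.01. PRPF3, a U4/U6 protein, had the largest common shift above 0 of all members, 1.42 ± 0.41 (SE, adjusted p = 0.0765 in limma), yet its arrays had opposite signs at each hour: 4.85 and -1.13 at 14 h, and -0.95 and 2.93 at 24 h. The value of 4.85 came mostly from one spot of the pair (8.37, against 1.33 on its neighbour).

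The LSm proteins, which bind the end of U6 RNA, were split too. LSM7 scored -0.54 and -2.75 at 14 h and passed the size rule as lower, with 0.45 and -1.72 at 24 h. Its common shift turned from -1.14 to 1.09 in the conditioned-over-control reading. LSM2 (1.44 and 0.94) and LSM4 (1.49 and 0.66) passed it as higher at 24 h and had array values of opposite sign at 14 h. LSM3, LSM5 and LSM8 had common shifts of 0.63, -0.37 and -0.23. LSM10 had one of 0.80, with a score of 2.50 on array A and -0.88 on array B at 24 h.

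SRSF11 stood apart from the other SR proteins. It scored 1.57 and 1.45 on arrays A and B at 14 h and 0.70 and 1.83 at 24 h, and was the only member past the size rule as higher at both hours, as were 110 of 2922 genes (3.76%). Its common shift of 1.39 ± 0.38 (SE) missed the threshold (adjusted p = 0.0689 in limma), and its sign turned in the conditioned-over-control reading (-0.25). The spots of its pair differed, with matched-hour means of 0.58 and 2.20. SRSF9, SRSF5, SRSF3 and SRSF6 had common shifts of -0.27, -0.09, 0.00 and 0.22, and none of them passed the size rule at either hour. SRSF3, an SR protein that also aids mRNA export, depended on its surroundings on the array: after centring on 51 neighbouring spots its shift was -1.45 ± 0.40 (SE, adjusted p = 0.0484 in limma), and its spots had matched-hour means of 0.87 and -0.87.

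**Figure D3:**
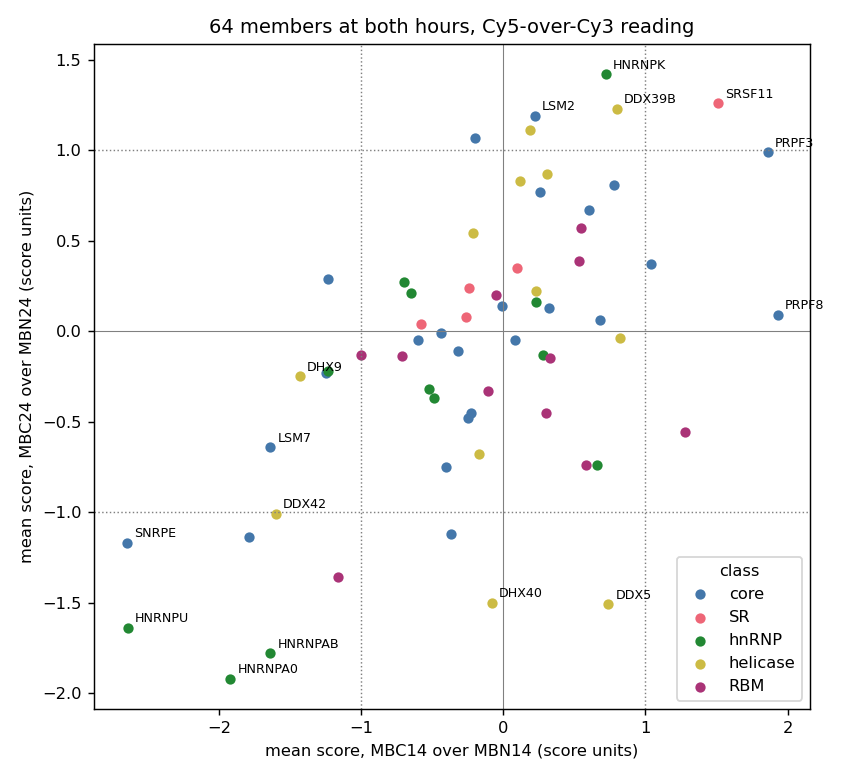
Mean score of each of the 64 genes at 14 h (horizontal) against 24 h (vertical) in conditioned over control medium, coloured by class. Dotted lines mark 1 score unit. HNRNPU, HNRNPA0 and HNRNPAB lie past -1 at both hours and pass the size rule at both, and SRSF11 passes it at both above 0.

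Among the helicases 0 of 12 were called, with 7 above 0 and a median of 0.20. DDX42, which associates with the SF3b complex, was lowest at -1.30 ± 0.39 (SE, adjusted p = 0.0889 in limma). Its arrays A and B gave -1.69 and -1.51 at 14 h and -1.95 and -0.06 at 24 h. DDX39B, which helps load U2 and then recruits export factors, was highest at 1.02 ± 0.39 (SE, adjusted p = 0.16 in limma). It scored 1.23 and 0.38 at 14 h and 1.30 and 1.16 at 24 h, above 0 on all 4 arrays. DHX9, also called RNA helicase A, passed the size rule as lower at 14 h (-1.19 and -1.67) and DHX40 at 24 h (-1.41 and -1.60). The paralogs DDX5 and DDX17 had common shifts of -0.38 and 0.39, which turned to 1.46 and -0.04 in the conditioned-over-control reading. DDX5 scored -3.48 on array B at 24 h, where one of its 2 spot pairs read -6.88 and the other -0.07.

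No RBM gene was called either. RBM4, which acts in splicing and translation and has been linked to muscle differentiation, was lowest at -1.26 ± 0.38 (SE, adjusted p = 0.0897 in limma), with -0.23 and -2.10 at 14 h and -2.87 and 0.15 at 24 h. Its close relative RBM4B lay at 0.56, with all 4 matched arrays between 0.44 and 0.67. RBM10, a splicing regulator, was the only RBM gene past the size rule at a matched hour (-1.06 and -0.94 at 14 h). RBM38, which stabilises messages during myogenic differentiation, was above 0 on all 4 arrays, from 0.34 to 0.68. RBM8A, a core protein of the exon junction complex, stayed near 0 on all 4 matched arrays, between -0.24 and 0.27.

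Over all classes, 13 members passed the size rule at 14 h, 3 as higher and 10 as lower, 20.3% of 64 beside 19.9% of all genes (9.1% higher and 10.8% lower). At 24 h 4 were higher and 6 lower, 15.6% beside 17.6% of all genes (7.94% higher and 9.69% lower). Both shares were close to those of all genes. In the conditioned-over-control reading 5 members passed at 14 h (7.81%), beside 6.37% of all genes (3.56% higher and 2.81% lower). At 24 h 2 passed, beside 6.02% of all genes (3.7% higher and 2.33% lower). These were PRPF3 (2.99), SRSF9 (1.41), PRPF19 (1.22), SNRPD2 (-1.17) and RBM22 (-1.28) at 14 h, and LSM10 (1.69) and PRPF3 (-1.94) at 24 h. No member passed at both hours in one direction there, and the hnRNPs had no member past the rule.

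**Figure D4:**
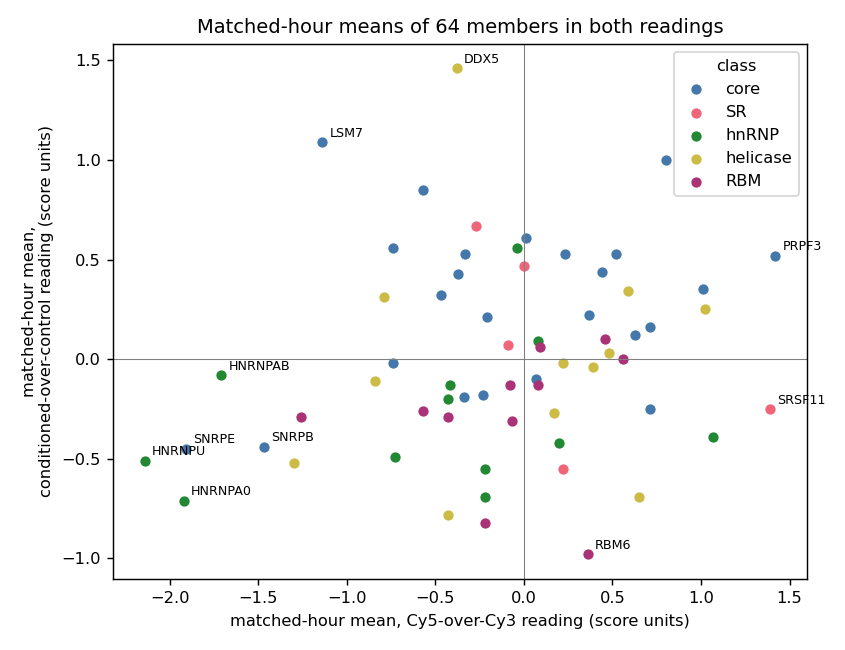
Common shift of each of the 64 genes over the matched hours in the Cy5-over-Cy3 reading (horizontal) against the conditioned-over-control reading (vertical), coloured by class. The 4 called genes lie between -2.14 and -1.71 on the horizontal axis and between -0.71 and -0.08 on the vertical one.

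Against control medium at 0 h, the 3 hnRNPs lay nearer 0. These comparisons share the conditioned RNA with the matched ones and the 0 h RNA with each other, so their values are only set side by side. HNRNPU scored -2.25 on array A and 0.34 on array B of MBC14 over MBN0, and -1.04 and 0.27 of MBC24 over MBN0. HNRNPA0 scored 1.73 and -1.87, then -0.31 and -0.43, and HNRNPAB -0.44 and -0.34, then 0.55 and -0.30. None of the 3 passed the size rule there, and apart from HNRNPAB at 14 h and HNRNPA0 at 24 h their arrays disagreed in sign. SNRPE, lower at matched hours, passed it as higher in MBC14 over MBN0 (2.19 and 0.50) and lay at 0.05 and -0.06 in MBC24 over MBN0.

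In MBC14 over MBN0, 8 members passed, 7 as higher and 1 as lower, 12.5% beside 15.7% of all genes (7.29% higher and 8.38% lower). SRSF11 was highest at 1.77 ± 0.73 (SD), with 2.28 and 1.25 on arrays A and B. LSM3 (2.44 and 0.88), RBM38 (1.75 and 1.16), RBM4 (0.61 and 2.26), PRPF38B (1.10 and 1.31) and DDX17 (0.99 and 1.31) were the other members higher beside SNRPE. The one lower was LSM2 (-0.97 and -1.60). RBM4 and LSM2 thus lay on the other side of 0 from their common matched-hour shifts of -1.26 and 0.71.

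In MBC24 over MBN0, 3 members were higher and 6 lower, 14.1% beside 19.3% of all genes (8.38% higher and 10.9% lower). DDX17 (1.37 and 1.91), PRPF38B (1.03 and 1.53) and RBM38 (0.55 and 1.60) were higher in both comparisons with 0 h. DHX9 was lowest at -1.73 ± 0.42 (SD), with -1.44 and -2.03, followed by LSM2 (-0.74 and -2.45). HNRNPA1, the most studied exon-silencing hnRNP, scored -1.93 and -1.06 and HNRNPA2B1 -1.52 and -0.75. LSM4 (-0.53 and -1.79) and DDX49 (-1.12 and -0.97) completed the lower ones. The hnRNP median was -0.36 in MBC14 over MBN0 and -0.38 in MBC24 over MBN0, beside -0.04 and -0.03 for all genes. Each time 9 of 12 were below 0, beside 52% and 51.4% of all genes. The median of the RBM class was 0.25 and 0.42, and that of the helicases -0.06 and -0.01. The SR median was 0.47 and then -0.01, and that of the core class 0.30 and 0.05.

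The other reading named different members. In MBC14 over MBN0, 9 members passed the size rule in it, 3 higher and 6 lower, beside 10.3% of all genes (5.61% higher and 4.72% lower). HNRNPA0 (1.80), RBM39 (1.32) and SF3B5 (1.11) were the higher ones. SRSF3 (-1.70), LSM8 (-1.69) and HNRNPF (-1.56) were the lowest. In MBC24 over MBN0, where 6.84% of all genes passed (3.11% higher and 3.73% lower), the 3 members were SNRPA1 (1.45), SNRPF (-1.38) and RBM15 (-1.79). By class, the hnRNP medians in this reading were -0.42 and -0.07 at the matched hours and -0.03 and -0.34 against 0 h. The core median changed sign between the readings in MBC14 over MBN14 (-0.21 to 0.22) and in both comparisons with 0 h (0.30 to -0.20 and 0.05 to -0.28), and was 0.03 and 0.46 in MBC24 over MBN24. In the shift shared by the matched hours it went from -0.10 to 0.34.

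Over all 8 arrays, SRSF11 and RBM38 were above 0 on each, and DDX42 and HNRNPA3 below 0 on each. These are 2 members each way, beside 64 and 100 of the 2922 genes.

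Spot agreement set a limit on single values. Within an array, the adjacent spots of the members' 71 pairs correlated between 0.16 and 0.66 (a description over pairs of one array). The SD within a pair ran from 0.73 to 1.20. Of the 64 members, 7 had a second pair elsewhere on the array, counted among the 71. For SNRPD2 the pairs had matched-hour means of -1.37 and 0.69, for DDX5 -1.27 and 0.50, and for SF3A3, a subunit of the SF3a complex on U2, -0.12 and 1.15. The pairs of HNRNPA1 (-0.62 and -0.24), HNRNPUL1 (-0.08 and -0.36), RBM5 (-0.13 and 0.31) and DHX30 (0.39 and 0.06) lay closer together. Averaging the pairs of SNRPD2 therefore gave a value near 0 that neither pair showed.

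**Figure D5:**
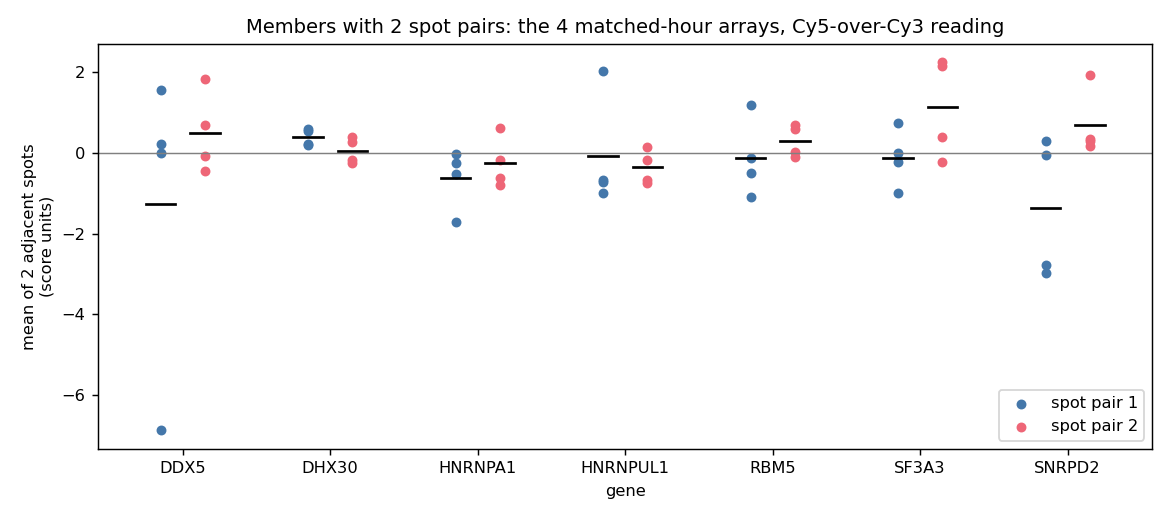
The 7 members with 2 spot pairs, each shown as the mean of 2 adjacent spots on the 4 matched-hour arrays, with black bars for the means. Blue is the first pair and red the second in array order. The pairs of SNRPD2, DDX5 and SF3A3 differ by over 1 score unit in their means, and one DDX5 point lies at -6.88.

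Other genes of RNA processing, outside the symbol rule, were taken from 5 lists. Of 18 measured further spliceosome proteins 0 rose and 1 fell, the prolyl isomerase PPIE (-1.68 ± 0.41, SE, adjusted p = 0.0487 in limma), with -3.07 and -1.23 at 14 h and -0.76 and -1.67 at 24 h. SYF2 (-1.58) and XAB2 (1.39), both linked to the catalytic complex, did not pass, and the list median was -0.48 beside -0.05 for all genes. Of 25 splicing regulators 2 rose and 0 fell: ARGLU1, a coactivator that also modulates splicing (3.22 ± 0.39, SE, adjusted p = 0.00534 in limma), and TRA2A, an SR-like activator of exon inclusion (1.66 ± 0.38, SE, adjusted p = 0.0401 in limma). Both turned sign in the conditioned-over-control reading, to -0.46 for ARGLU1 and -0.31 for TRA2A, while PPIE stayed below 0 (-0.23). XAB2 (-0.80) and PCBP2 (1.33) turned too. TRA2A scored 1.13 and 2.45 on arrays A and B at 14 h, with a mean of 1.54 at 24 h, while its relative TRA2B lay at -1.03. PCBP2 had the next largest value (-1.59), which rested on array B at 24 h (-5.40).

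In the remaining lists 0 genes passed. They were 10 genes of the exon junction and mRNA export, led by NXT1 (1.45), CHTOP (-1.11) and ACIN1 (0.73), 3 of Sm ring assembly (GEMIN7, -1.15, STRAP, -0.85, and PRMT5, 0.37), and 6 of cleavage and polyadenylation, led by SSU72 (-1.33), PABPC1 (-1.08) and CPSF7 (0.89). GEMIN7, a subunit of the SMN complex that loads Sm rings, scored 0.48 and 0.02 at 14 h and -2.62 and -2.47 at 24 h. Of the 62 measured genes of the 5 lists, 3 passed, 4.84% beside 5.2% of all genes.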

How the data were processed

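Gene expression was measured on 8 spotted 2-colour arrays. The deposited files hold signed scores, one for each spot of an array. The sources used here do not give how the authors made them (background correction, normalisation, scale, log base, direction). They reach beyond 16, the limit of a log2 ratio of 16-bit channels, so the deposited scores were not treated as log2 ratios, and the planned test was run on them unchanged. For one array (MBC14 over MBN0, B) the labelling text contradicts the dye field, which was used. Scanner intensities were not used here, so no dim spot was left out. Precision is limited by the number of arrays.

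Scores were centred on the median of each array, array B was turned in sign, and the spots of a gene were averaged. Symbols came from the platform annotation of 2016: 6610 of 9984 spots list 1 gene, 106 list several (among them 2 spots of SNURF and SNRPN, not used) and 3268 are unnamed here. The matched-hour fit used limma 3.58.1 in R 4.3.3 (lmFit and eBayes on 2 values per gene) with a threshold of 0.05 on the adjusted p. It was tested on simulated data. Members and lists were chosen with earlier results of these data known. Named members are those past the size rule (the 6 highest and 6 lowest where over 12 passed), those called, the 3 largest of each class, up to 3 each way in the other reading, the 4 with most spots, those opposite at the hours and, per list, called genes and the 3 largest. Members shown only to complete a class, and markers, fall outside this rule and were chosen after their values were seen. Alternatives covered the reading, centring on 51 or 11 neighbouring spots, one SD for all arrays, the median of spots, a size threshold of log2 of 3, each array letter left out, a replicate block and a fit of all 4 comparisons. The windows of 51 or 11 spots held the spot being centred and the other spot of its pair.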

Additional observations from a re-analysis of the deposited data

Results flagged for a closer look

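PRPF3, the U4/U6 protein, went opposite ways at the matched hours in the conditioned-over-control reading. Its mean was 2.99 at 14 h and -1.94 at 24 h, with both arrays of an hour at least 0.5 score units in that hour's direction. On array A its spots read 1.33 and 8.37 at 14 h, and 0.14 and -2.05 at 24 h. The first spot alone thus did not meet the check at 24 h. The difference between the hours was not tested. Opposite directions at the hours were found for 1 of 64 members, beside 1.03% of all genes. In the Cy5-over-Cy3 reading they were found for 0 members, beside 0.616% of all genes.

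LSM4, a protein of the ring on U6, went opposite ways against 0 h in the Cy5-over-Cy3 reading. Its mean was 0.94 in MBC14 over MBN0 and -1.16 in MBC24 over MBN0. The spots behind these means disagreed, and neither spot alone went opposite ways by this check. They read 2.04 and -0.68 on array B of MBC14 over MBN0, and 2.05 and -3.11 on array A of MBC24 over MBN0. The comparisons share the 0 h RNA, and the difference was not tested. It was again 1 of 64 members, beside 0.89% of all genes. The comparisons with 0 h and the second reading were added to this check after the data were seen.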

How the results depend on the processing

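The matched-hour fit called 4 members, and 0 in the conditioned-over-control reading and with centring on 11 neighbouring spots (0 to 3 when one array letter was left out). Of all genes 5.2% were called in the main fit, 0% in the conditioned-over-control reading and 0.0684% with 11 neighbouring spots. Without the A arrays 0% were called, and without the B arrays 4.38%. Centring on 51 neighbouring spots called 5, beside 5.37% of all genes (HNRNPA0 and HNRNPU kept, HNRNPAB and SNRPE lost, PRPF3, SNRPB and SRSF3 added). With arrays scaled to one SD 3 were called, beside 3.8% of all genes, and SNRPE was lost (adjusted p = 0.062 in limma). The same 4 were called with the median of spots and with all 4 comparisons in the fit, beside 6.47% and 6.54% of all genes. With the array letter as a replicate block and arrays entered singly, 3 were called, beside 2.94% of all genes. SNRPE was lost there (adjusted p = 0.146 in limma). limma's duplicateCorrelation gave no value for this design, so the block used a correlation of -0.105 from mean squares over genes. The deviations of same-letter arrays correlated at -0.06 between the matched hours, so the letters were not taken to pair the arrays. The cause of these losses was not tested. Of the members past the size rule, MBC14 over MBN14 had 13. It had 5 in the conditioned-over-control reading, 7 with 11 neighbouring spots, 7 at log2 of 3 and 20 to 28 on one array letter. MBC24 over MBN24 had 10, and 2, 5, 3 and 20 under these. MBC24 over MBN0 had 9, and 3, 5, 3 and 18 to 22. MBC14 over MBN0 had 8, and 2 at log2 of 3 and 20 to 23 on one letter, where a single array has no second value to meet. The share of all genes past the size rule was computed only for the Cy5-over-Cy3 and conditioned-over-control readings. All 4 called members were below 0 on each matched array, so leaving out a letter or scaling the arrays could not turn them. Each had a single spot pair, so the median of its spots was their mean. The block and the fit of all 4 comparisons returned the main mean. In the conditioned-over-control reading and with 51 or 11 neighbouring spots, where a turn was possible, the 4 stayed below 0. Between the readings 24 of 64 members changed direction. Of the values of named genes recomputed, 330 kept their direction and call, 37 that were not called changed sign (14 of them in the conditioned-over-control reading), 17 lost a call and 3 gained one. Among the 330, 43 came from the fit of all 4 comparisons and 42 from the replicate block. Both return the main mean, so no sign could change there. Of the class medians recomputed, 27 moved by more than the spread between the arrays and 113 did not. That spread was the SD of the medians on array A and on array B. Of the 113, 14 came from leaving out A and 15 from leaving out B. These were judged against a spread made from themselves, so they say little about stability.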
